A study of Rattus norvegicus with 8 samples.

Results

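The 8 genes described here act around the burning of fatty acids and are known targets of the peroxisome proliferator-activated receptors (PPARs), or, in the case of Ppara, encode such a receptor. The members were Ppara, Cpt1a, Cpt2, Acadl, Acadm, Hadha, Pdk4 and Ucp2. Every probe set that the platform annotation names with exactly 1 of these symbols was taken, and these came to 12 of 31042 probe sets, or 8 of 14217 named genes. Hadha had 3 probe sets, Cpt1a and Pdk4 had 2 each, and the other 5 genes had 1 each. The rule itself uses no measured value, but the members were chosen with earlier results of these data known.

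RNA came from whole blood of male Wistar rats on 8 arrays, 4 from animals on a normal diet (CE-2) and 4 from animals on a high-fat diet (Quick fat). The rats were bought at 7 weeks of age, acclimatized on the normal diet for a week and then fed their diet for 8 weeks. All of them fasted overnight before blood was drawn, so neither group shows the fed state. The labels give 10 rats per diet and do not say how the 4 on arrays were picked. A further diet, high in fat with mulberry leaf added, is not part of the 8 arrays used. Whole blood holds red cells, white cells and platelets in shares that were not measured, so fewer cells of a type and less RNA per cell cannot be told apart.

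PPARs are nuclear receptors that bind fatty acids and their derivatives, pair with a retinoid X receptor (RXR) and sit on DNA at direct repeats of AGGTCA with a single base between. PPAR alpha is best known from liver, heart and muscle, where it raises genes of fatty acid oxidation during a fast or a fat-rich diet. Its targets span the route of a fatty acid: the carnitine shuttle carries it into the mitochondrion, the beta-oxidation enzymes shorten it, and Pdk4 spares glucose meanwhile.

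The promoters of 7 of the 8 members were held in the RefSeq table (build GRCr8), each running from 250 bases before the gene's start to 50 after it. The motif AGGTCANAGGTCA was searched on both strands, where N is any base and its reverse form is TGACCTNTGACCT. An exact match was in none of the 7, and in 0.0538% of all 33469 promoters of that length. The repeat unit AGGTCA alone, a part of the motif that was counted on both strands, was also in none of the 7 and in 16.2% of all promoters. The window of Hadha nearest to the motif differed from it at 3 of the 12 fixed letters, which 24.9% of all promoters match or better. Ppara, Cpt1a, Cpt2, Pdk4 and Ucp2 differed at 4, as 80.3% of promoters do or better, and Acadm at 5. A match, or none, describes the letters of this 300-base window only. The promoters printed are those of the genes whose probe sets had the highest and the lowest diet difference in units of their own spread, Hadha and Pdk4, and the widest range between animals, Ucp2. Capitals mark the window nearest to the motif, which starts at -195 from the gene's start in Hadha and at -178 in Pdk4. In Ucp2 it starts at 20, where the motif reads on the opposite strand. Pdk4 had 4 equal windows, counted over both strands, and the marked window is the most upstream of those on the strand shown.
Hadha promoter, chr6:31907551-31907850, plus strand: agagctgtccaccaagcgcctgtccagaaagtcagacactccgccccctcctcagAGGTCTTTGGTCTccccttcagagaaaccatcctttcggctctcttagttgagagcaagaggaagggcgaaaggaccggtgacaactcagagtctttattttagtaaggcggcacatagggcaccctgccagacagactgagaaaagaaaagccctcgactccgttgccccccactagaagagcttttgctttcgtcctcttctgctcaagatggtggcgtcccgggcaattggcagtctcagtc
Pdk4 promoter, chr4:34568280-34568579, minus strand: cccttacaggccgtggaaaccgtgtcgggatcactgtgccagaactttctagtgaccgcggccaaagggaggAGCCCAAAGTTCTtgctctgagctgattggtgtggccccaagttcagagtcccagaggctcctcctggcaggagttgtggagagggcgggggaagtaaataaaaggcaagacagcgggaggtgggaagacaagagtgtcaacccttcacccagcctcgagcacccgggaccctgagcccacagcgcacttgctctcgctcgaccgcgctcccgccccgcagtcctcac
Ucp2 promoter, chr1:164251123-164251422, plus strand: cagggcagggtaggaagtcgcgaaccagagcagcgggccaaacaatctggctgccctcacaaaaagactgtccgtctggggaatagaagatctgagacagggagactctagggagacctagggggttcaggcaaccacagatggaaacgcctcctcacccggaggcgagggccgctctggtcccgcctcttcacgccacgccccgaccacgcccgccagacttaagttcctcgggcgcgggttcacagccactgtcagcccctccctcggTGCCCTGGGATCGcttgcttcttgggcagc

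No member was distinguished between the diets, and all 12 probe sets overlapped between the groups. With limma, 0 of the 12 passed an adjusted p of 0.05, where 0% of all probe sets did, and 0 of the 12 had an unadjusted p under 0.05, where 2.25% did (699 of 31042). The adjusted p was 1 for each of the 12. Over the alternative settings the adjusted p of a member ranged from 0.191 to 1, and 0 passed in any of them. The exact permutation test of 4 against 4 animals, two-sided, gave p between 0.143 (Hadha) and 0.943 (Cpt1a), where the smallest it can give is 0.0286. Groups that did not overlap made up 1.44% of all probe sets and 0 of the 12.

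The deposited values run on a log2 scale, but between animals they differ only in the fifth decimal or beyond for most probe sets. They therefore do not give folds of RNA, and the amount by which they were compressed can differ from probe set to probe set. A difference is given here in millionths of a deposited log2 unit, as the deviation of an animal from the mean of the probe set over the 8 arrays. It is also given as a multiple of the pooled SD within the groups, called within-group SDs. The means of the 12 probe sets were higher in the high-fat group for 7 and lower for 5, with a median of 0.06 within-group SDs. Over all probe sets 46.6% were higher and 53.4% lower, with a median of -0.05. Centring each array on its median subtracts the same 66.0 millionths from every difference, which puts 98.4% of all probe sets and all 12 of these below 0. This shift is that of the array medians and not of the typical probe set. As deposited, the median difference over all probe sets was -0.17 millionths. The median deviation within an array lay between -0.44 and 0.46 millionths. A sign given below is therefore that of the values as deposited. Quantile normalization put 45.2% of all probe sets at 0 and left 22.3% above it. It turned Acadm and Hadha 1394763_at above 0, turned Acadl below 0 and put 4 of the 12 at 0, with 5 above it.

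**Figure D1:**
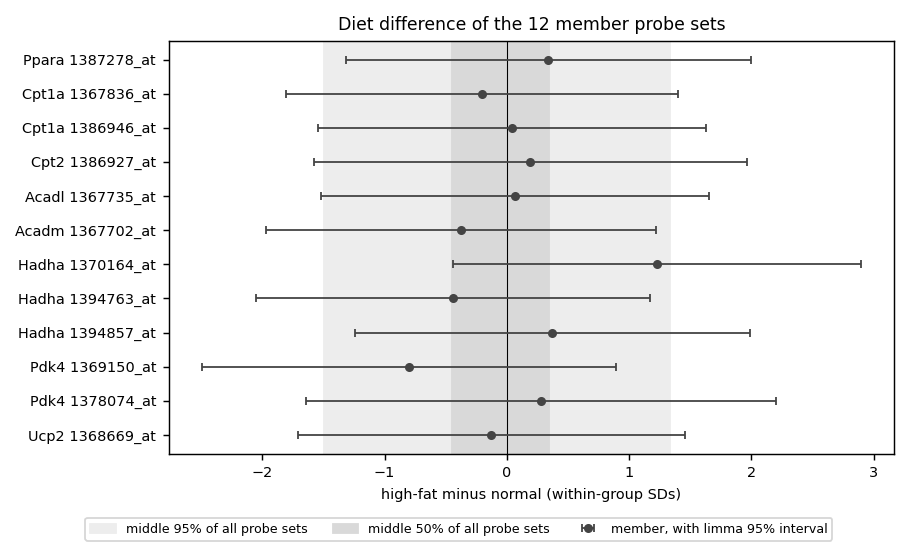
Difference of the 12 member probe sets, high-fat minus normal, in within-group SDs (x axis), with the 95% interval of the limma fit (4 animals a group). Grey bands hold the middle 50% and the middle 95% of all probe sets. Every interval spans 0, and all 12 points lie inside the wider band.

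Before the diets, the level read for these genes in fasted blood is given as the mean over the 8 arrays. Beside it stands its percentile among all probe sets on the arrays. A probe set's brightness depends on its probes as well as on RNA, so these percentiles do not order the genes by abundance. Ucp2, an uncoupling protein of the inner mitochondrial membrane that white cells are known to express, had a level of 10.03, at percentile 98.8. Cpt1a, the gate of the carnitine shuttle, had a level of 8.07 in its brighter probe set (percentile 92.8) and 6.68 in the other (54.4). Acadm and Acadl, the medium- and long-chain acyl-CoA dehydrogenases, had levels of 7.86 and 7.61, at percentiles 90.6 and 86.9. Hadha, the alpha subunit of the mitochondrial trifunctional protein, read 7.54 (percentile 85.8), 6.68 (54.8) and 6.33 (32.4) in its 3 probe sets. Pdk4, the kinase that shuts off pyruvate dehydrogenase, read 6.55 (46.9) and 5.72 (3.31). Cpt2, the inner-membrane partner of Cpt1a, stood at 6.51 (44.6) and Ppara at 6.03 (14.1). The bright readings thus belonged to Ucp2 and to enzymes, while the receptor and the dimmer Pdk4 probe set were the dimmest. Enzyme readings also lay lower down, among them the dimmest Hadha (32.4), Cpt2 (44.6) and the brighter Pdk4 (46.9).

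The markers of blood cells and of other tissues are given on the same percentile scale, which is a description and no measure of abundance. The 5 erythroid markers measured lay at percentiles 97.2 to 99.9, the 5 of T cells at 96.2 to 98.9 and the 4 of platelets at 92.8 to 99.7. The 3 of B cells lay at 80.4 to 97.5, the 5 of monocytes at 65.3 to 99.8, the 5 of natural killer cells at 43.1 to 96.4 and the 5 of neutrophils at 40.8 to 99.5. The 5 liver markers lay at 9.77 to 57.5, the 5 muscle markers at 7.30 to 60.4 and the 5 adipose markers at 19.1 to 53.0. The dimmest neutrophil and natural killer markers thus lay within the ranges of the liver and muscle markers. So did Ppara (14.1), Cpt2 (44.6), the brighter Pdk4 (46.9), the dimmer Cpt1a (54.4) and Hadha 1394763_at (32.4) and 1394857_at (54.8). The dimmer Pdk4 (3.31) lay below both ranges, and the remaining member probe sets lay above them. By brightness, the readings within or below these ranges cannot be told from those of genes typical of other tissues.

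**Figure D2:**
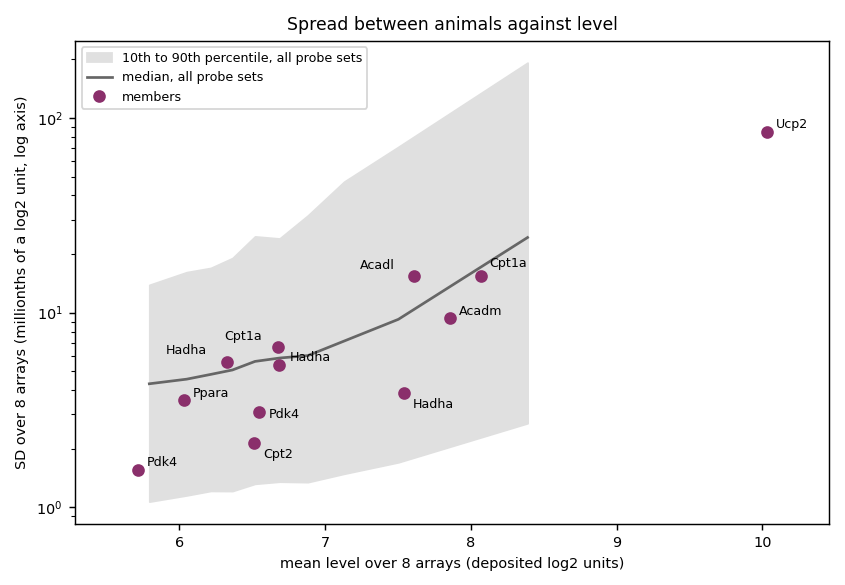
SD of each member probe set over the 8 arrays, in millionths of a log2 unit on a log axis, against its mean level in deposited log2 units; the grey band and line give the 10th to 90th percentile and the median of all probe sets by level. Ucp2 has the highest level (10.03) and an SD of 85.0 millionths, and the other 11 lie between 1.56 and 15.4.

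The median SD over the 8 arrays was 5.50 millionths for the 12 probe sets and 6.07 for all probe sets. Ucp2 had an SD of 85.0 millionths, 5.50 times that of the next widest member, Cpt1a (15.4). Among probe sets of similar level (10 equal bins), Ucp2 lay at percentile 78.6 for spread, and the brighter Cpt1a at 39.5, Acadl at 62.4 and Acadm at 28.5. The narrowest were the dimmer Pdk4 (1.56 millionths) and Cpt2 (2.14), at percentiles 17.4 and 19.4 of their bins.

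**Figure D3:**
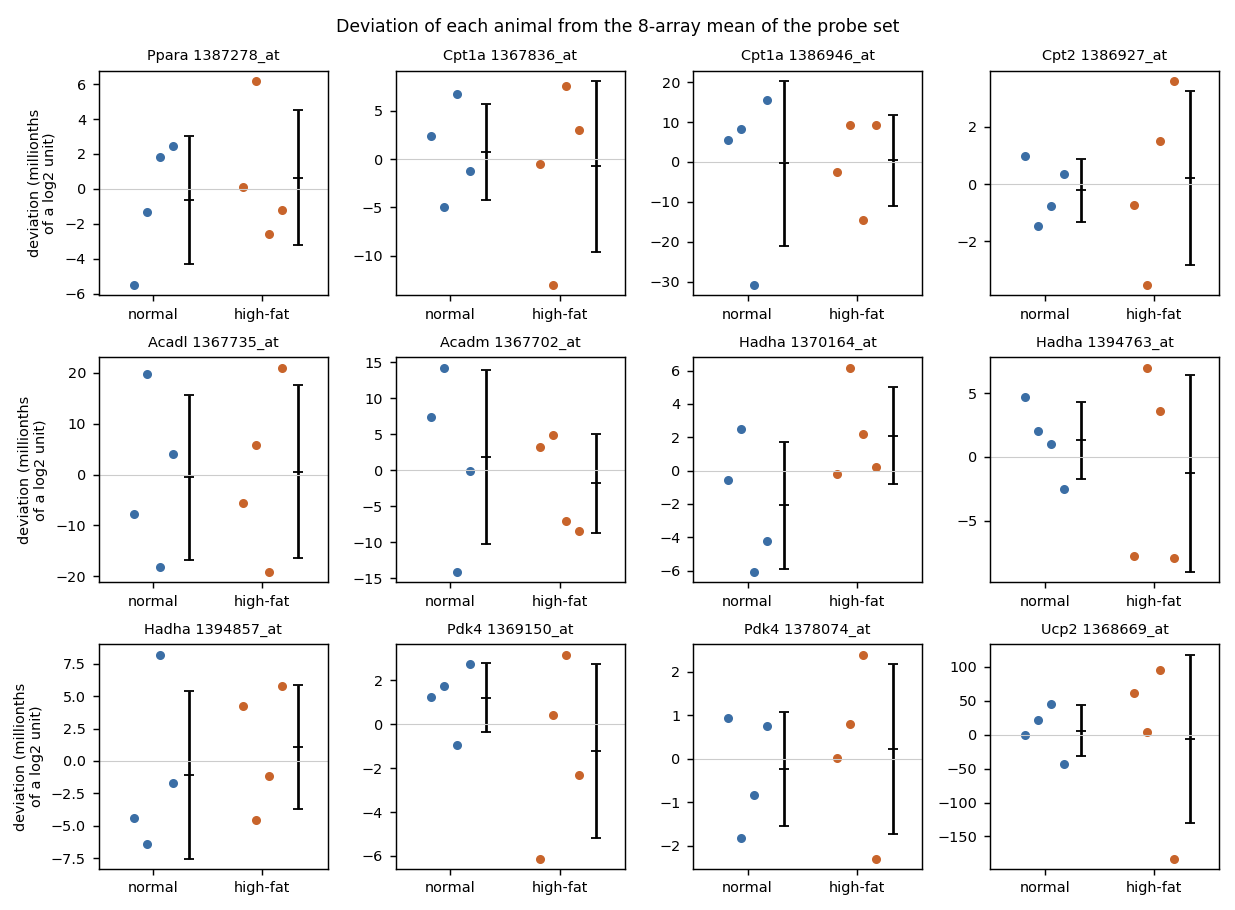
Deviation of each animal from the 8-array mean of each member probe set, in millionths of a log2 unit (y axes differ between panels), by diet; points are animals in order of replicate number, bars are mean and SD (n = 4). The groups overlap in all 12 panels, and 1 high-fat animal lies at -183 for Ucp2.

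The receptor gene, Ppara, did not separate the diets. Its normal animals, replicates 1 to 4, deviated from the mean by -5.49, -1.35, 1.83 and 2.48 millionths, and the high-fat animals by 0.11, 6.19, -2.56 and -1.21. The lowest animal was thus on the normal and the highest on the high-fat diet, with the other 6 mixed. The difference, high-fat minus normal, was 1.27 ± 2.61 millionths (SE, n = 4 and 4), or 0.34 within-group SDs, with a 95% limma interval from -1.32 to 1.99 (exact permutation p = 0.657). The sign turned in 2 of the 8 fits that left out an animal.

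For the carnitine shuttle, the probe sets of Cpt1a did not behave alike. In the brighter one (1386946_at) the normal animals stood at 5.44, 8.32, -30.7 and 15.5 millionths and the high-fat animals at -2.59, 9.29, -14.4 and 9.21. Normal replicate 3 lay far below the rest, and the normal group also held the highest animal, so the high-fat values lay wholly inside the normal range. Its difference was 0.753 ± 11.1 millionths (SE, n = 4 and 4), or 0.05 within-group SDs (exact permutation p = 0.943). The dimmer probe set (1367836_at) stood at 2.35, -4.95, 6.70 and -1.18 in normal animals and at -0.505, -13.0, 7.60 and 2.99 in high-fat ones. There normal replicate 3 and high-fat replicate 3 were the highest animals, whereas they were the lowest in the brighter probe set. Its difference was -0.20 within-group SDs (exact permutation p = 0.886), and the deviations of the probe sets had the same sign in 3 of 8 animals. Cpt2, which releases the acyl group inside the mitochondrion, stood at 0.986, -1.45, -0.766 and 0.351 millionths in normal animals. Its high-fat animals, at -0.719, -3.52, 1.50 and 3.61, reached beyond the normal ones on both sides. The difference was 0.19 within-group SDs, with an interval from -1.58 to 1.96 (exact permutation p = 0.771).

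The acyl-CoA dehydrogenases carry out the opening step of each round of beta-oxidation, Acadl on long and Acadm on medium chains. Acadl stood at -7.85, 19.7, -18.1 and 4.05 millionths in normal animals and at -5.54, 5.82, -19.1 and 21.0 in high-fat ones. Each diet held animals near both ends, and the group means differed by 1.09 ± 11.1 (SE, n = 4 and 4), or 0.07 within-group SDs, with an interval from -1.52 to 1.65. Acadm stood at 7.32, 14.2, -14.1 and -0.088 millionths in normal animals and at 3.23, 4.92, -7.10 and -8.42 in high-fat ones. Here all 4 high-fat animals lay within the normal range. The difference was -0.37 within-group SDs, with an interval from -1.97 to 1.22 (exact permutation p = 0.629), and without normal replicate 3 it was the lowest, -1.29.

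Hadha, which catalyses later steps of the same cycle, had the member probe set that lay farthest from 0. In its brightest probe set (1370164_at) the normal animals stood at -0.580, 2.51, -6.06 and -4.21 millionths and the high-fat animals at -0.228, 6.17, 2.18 and 0.218. All 4 high-fat animals lay above the normal mean, but normal replicate 2 lay above 3 of them. The difference was 4.17 ± 2.39 millionths (SE, n = 4 and 4), or 1.23 within-group SDs, with an interval from -0.44 to 2.90, an adjusted p of 1 by limma and an exact permutation p of 0.143. Without normal replicate 2 it was 5.70 millionths with an unadjusted limma p of 0.0442, and it did not pass after adjustment. That was the smallest unadjusted p of any member probe set over all the fits that left out an animal. The other probe sets of Hadha differed by -0.44 (1394763_at) and 0.37 (1394857_at) within-group SDs, with exact permutation p of 0.514 and 0.657. The sign of the difference thus varied over the probe sets of this gene. The deviations of 1394763_at and 1394857_at had the same sign in 2 of 8 animals, and those of the brightest in 5 and 3 of 8 with them.

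Pdk4 is the member best known as a marker of the fasted state, since its kinase turns off pyruvate use. Its brighter probe set (1369150_at) stood at 1.26, 1.76, -0.942 and 2.75 millionths in normal animals and at -6.12, 0.431, 3.17 and -2.32 in high-fat ones. High-fat replicates 1 and 4 lay below all normal animals and high-fat replicate 3 above them. The difference was -2.42 ± 2.15 millionths (SE, n = 4 and 4), or -0.80 within-group SDs, with an interval from -2.50 to 0.89 (exact permutation p = 0.343). Without high-fat replicate 1 it was -0.778 millionths, and without high-fat replicate 3 it was -3.88. The dimmer probe set (1378074_at) stood at 0.944, -1.81, -0.83 and 0.767 in normal animals and at 0.026, 0.798, 2.40 and -2.29 in high-fat ones. It differed by 0.28 within-group SDs (exact permutation p = 0.686), opposite in sign to the brighter one. The deviations of these probe sets had the same sign in 6 of 8 animals.

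Ucp2 had the widest spread of all members, with high-fat replicate 4 the farthest from the mean. The normal animals stood at -0.864, 21.9, 45.5 and -43.4 millionths and the high-fat animals at 60.8, 3.40, 95.2 and -183. High-fat replicates 1 and 3 were the highest of all 8 and high-fat replicate 4 was the lowest. The difference was -11.6 ± 60.9 millionths (SE, n = 4 and 4), or -0.13 within-group SDs, with an interval from -1.71 to 1.46 (exact permutation p = 0.914). Without high-fat replicate 4 it was 47.4 millionths, or 1.14 within-group SDs, and without high-fat replicate 3 it was -45.2. High-fat replicate 4 also stood apart in cell markers, at a scaled level of 2.24 for natural killer cells, 2.11 for monocytes and -1.69 for platelets. For a scaled level, each gene's values were centred and divided by their SD across the 8 arrays, and list members were then averaged. The other 7 animals lay between -0.71 and 0.20, -0.56 and -0.05, and -0.04 and 0.58 on these lists. On the erythroid (-0.17), T cell (-0.46), B cell (-0.44) and neutrophil (0.45) lists, high-fat replicate 4 lay within the range of the other animals. Ucp2 lay on the same side of the mean as the natural killer list in 1 of 8 animals, the monocyte list in 2 and the platelet list in 5. The part of these cell types in the Ucp2 values was not tested.

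**Figure D4:**
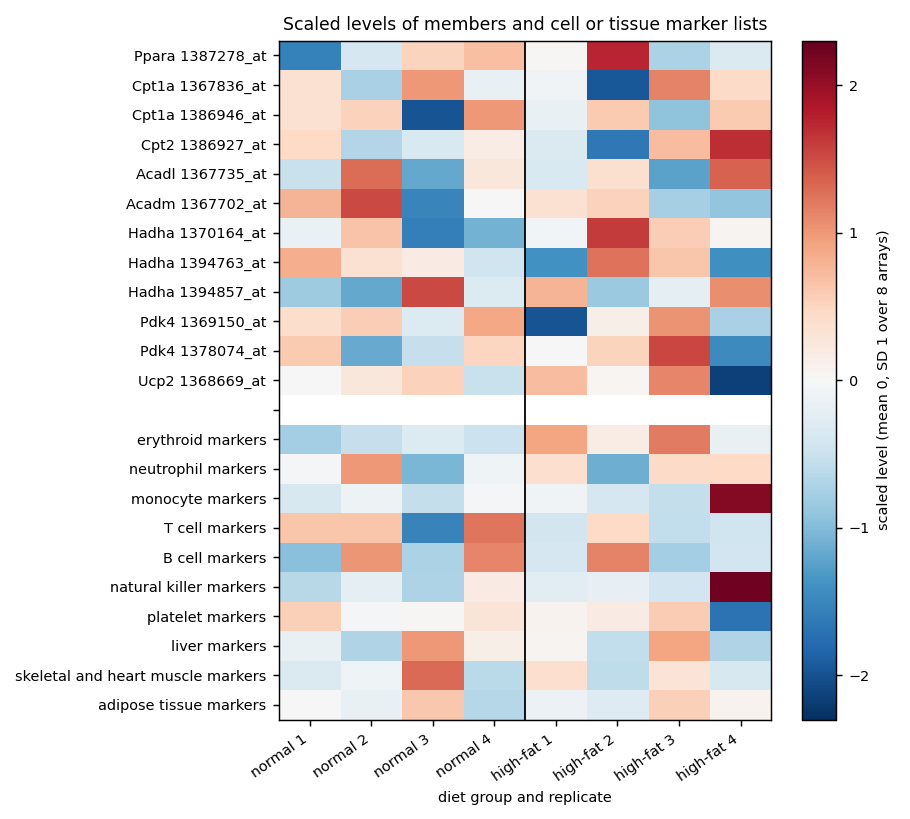
Scaled level (colour, mean 0 and SD 1 over the 8 arrays) of the 12 member probe sets, and the mean scaled level of 10 marker lists, in the 4 normal and 4 high-fat animals. Normal replicate 3 is low for the brighter Cpt1a probe set (-1.99), Acadm (-1.51), the brightest Hadha probe set (-1.57) and the T cell markers (-1.54). It is above the mean for 5 of the 12, among them the dimmer Cpt1a (1.00) and Hadha 1394857_at (1.52). Of all probe sets on the arrays, 21.3% were highest and 18.9% lowest in this animal. In each other animal at most 13.8% were highest and at most 14.4% lowest.

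Across animals, the nearest patterns among the members were those of Cpt1a and the acyl-CoA dehydrogenases. Likeness was measured as the mean absolute difference between scaled levels over the 8 arrays, with the brightest probe set of each gene, so that 0 would be an identical pattern. Among members, the closest pair was Cpt1a and Acadl, at 0.581, followed by Cpt1a and Acadm at 0.646 and Acadl and Acadm at 0.717. The median distance of Cpt1a to all other genes was 1.07. Such distances were common on the arrays: 17.4% of all genes were as close to Cpt1a as Acadl, and 21.6% as close as Acadm. Ppara lay at 1.02 to 1.37 from every other member, against a median of 1.09 to all genes. Ucp2 was nearest to Pdk4 (0.909) and far from Cpt1a (1.37) and Acadl (1.41). The genes share the same 8 arrays, and these values describe those arrays only. Normal replicate 3, low for Cpt1a (-1.99), Acadl (-1.17) and Acadm (-1.51), was also the lowest animal for 18.9% of all probe sets.

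The T cell markers Cd3e, Cd3d, Cd3g, Cd5 and Lck had scaled levels close to those of the brighter Cpt1a probe set. The list stood at 0.63, 0.65, -1.54 and 1.23 in normal and at -0.42, 0.46, -0.56 and -0.46 in high-fat animals, while Cpt1a stood at 0.35, 0.54, -1.99, 1.00, -0.17, 0.60, -0.93 and 0.60 in the same order. They lay on the same side of the mean in 7 of 8 animals, at a distance of 0.361. This pair is described because its distance was the smallest between any of the 12 probe sets and any of the 10 marker lists. Of 14212 other genes, 1.88% were as close to the list, and 12.4% lay on its side of the mean in as many animals. The dimmer Cpt1a probe set did the reverse, at a distance of 1.37 and on the same side in 2 of 8 animals. The same list was also the nearest of the 10 marker lists to Acadm (0.471), and 6.88% of genes were as close. Other lists came about as near to other probe sets. The platelet list lay at 0.439 from the dimmer Pdk4 and 0.493 from Ucp2, and the liver list at 0.472 from the dimmer Cpt1a. The erythroid list was the list whose mean scaled levels did not overlap between the diets, at -0.77 to -0.32 in normal and -0.17 to 1.20 in high-fat animals. Taken singly, Hemgn did not overlap (2.63 within-group SDs), while Slc4a1 (1.71), Klf1 (1.59), Epb42 (0.81) and Alas2 (0.33) did, and none passed limma. Single genes without overlap made up 1.32% of all genes, and how often a list mean does so was not counted. The erythroid list was the nearest list to none of the 12 probe sets. The part of cell makeup in the values of the members was not tested.

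The genes nearest to each member over the 8 arrays were taken from all named genes. Those nearest to Cpt1a were Sft2d1 and Pum2 (both at 0.092), and those nearest to Acadl were Lamtor5 (0.099) and Tmed10 (0.106). Acadm was nearest to Mbtd1 (0.172) and Tnfrsf25 (0.189), and Ucp2 to Ptk7 (0.163) and Borcs8 (0.222). Hadha was nearest to Rab29 (0.211) and Ccn6 (0.224), and Pdk4 to Clspn (0.226) and Inpp5k (0.270). Cpt2 was nearest to Maob (0.233) and Hfe (0.252), and Ppara to Slc10a7 (0.248) and Mcm3ap (0.267). Each member was compared with 14216 genes over only 8 arrays, and the matches are a description.

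**Figure D5:**
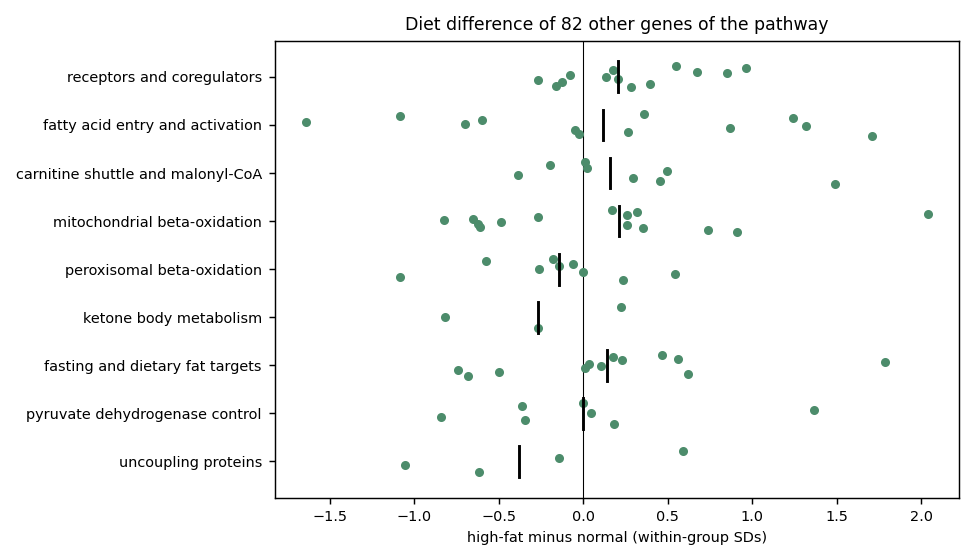
Difference, high-fat minus normal, in within-group SDs (x axis) of 82 other genes of the pathway in 9 lists, each gene by its brightest probe set; black bars are list medians. None of these genes passed an adjusted p of 0.05, and the list medians lie between -0.38 and 0.21.

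The wider pathway gave no called gene either. Of 88 further genes in 9 lists, 82 were measured, and 0 passed limma in either direction. Means were higher in the high-fat group for 45 and lower for 37 (54.9% higher, against 47.4% of all genes), with a median of 0.04 within-group SDs against -0.04 for all genes. Centring the arrays leaves 2 of these 82 higher (2.44%, against 2.38% of all genes), and quantile normalization 21 (25.6%, against 24.0% of all genes). An unadjusted limma p under 0.05 was reached by 3 of the 82, Acsl1, Fabp4 and Etfdh, against 2.25% of all probe sets.

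Among receptors and coregulators, 9 of 13 genes were higher in the high-fat group by any amount, with a median of 0.21 within-group SDs. Rxra, the usual partner of PPARs, stood at 0.96 within-group SDs and the coactivator Ncoa2 at -0.27. Fatty acid entry and activation had 6 higher and 6 lower. Acsl1, which couples fatty acids to coenzyme A and is itself a PPAR target, stood at 1.71 within-group SDs (adjusted p = 1 by limma), and its further probe sets at 1.79 and -0.46. Fabp4, a fatty acid carrier of fat cells and macrophages, stood at -1.64 within-group SDs (adjusted p = 1 by limma). Its level was low, 5.88, at percentile 7.69 of all probe sets. The fatty acid transporter Cd36 was the single measured gene of the 9 lists whose groups did not overlap, which is 1.22% of the 82, against 1.32% of all genes. It stood at 1.32 within-group SDs (adjusted p = 1 by limma), with high-fat replicate 1 at 9709 millionths and the other high-fat animals from -465 to 374. Its normal animals lay from -3879 to -1685. The difference was 4684 millionths, and 2229 without high-fat replicate 1. Cd36 is named outside the rule, after its values were seen.

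Of the carnitine and malonyl-CoA genes 6 of 8 were higher. Acaca, an enzyme that makes malonyl-CoA, stood at 1.49 within-group SDs and its second probe set at -0.34. Cpt1c, the brain relative of Cpt1a, stood at -0.39. Mitochondrial beta-oxidation had 8 of 14 higher. Etfdh, which passes electrons from the acyl-CoA dehydrogenases to the respiratory chain, stood at 2.04 within-group SDs (adjusted p = 1 by limma), and the isomerase Eci1 at -0.83, with its second probe set at -0.34. Peroxisomal beta-oxidation had 2 of 9 higher, with catalase (Cat) at 0.54 and the transporter Abcd3 at -1.09. In ketone body metabolism 1 of 3 was higher, with Oxct1, which uses ketone bodies, at 0.22 and Bdh1 at -0.82, the latter with a second probe set at -0.08.

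Other known answers to fasting and dietary fat had 9 of 12 higher, with a median of 0.14 within-group SDs. Lipoprotein lipase (Lpl) stood at 1.79 within-group SDs at a low level of 5.92, and the liver factor Creb3l3 at -0.74. Relatives of Pdk4 in the control of pyruvate dehydrogenase had 3 of 7 higher. Pdk3 stood at 1.37 within-group SDs and its second probe set at 2.44 (adjusted p = 1 by limma for both), while Pdk1 stood at -0.84 and its second probe set at -0.55. Of the relatives of Ucp2, 1 of 4 was higher, with Ucp3, the muscle form, at 0.59 and its second probe set at 0.44. Slc25a27 stood at -1.05, and its further probe sets at -1.32 and 0.33. No list was tested as a list. The 18 genes named over the lists were those with the smallest p in each direction, a choice that favours a kept sign when an animal is left out. The sign turned in at least 1 such fit for 4 of them, Ncoa2, Cpt1c, Cat and Oxct1. Quantile normalization turned 3 of the 18, Acsl1, Eci1 and Creb3l3, and put 10 at 0, Fabp4, Etfdh, Lpl and Rxra among them.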

How the data were processed

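Blood RNA of 8 rats was isolated with a phenol reagent, column-purified and labelled with biotin from 200 ng for 3' expression arrays, per the labels' protocols. The values are the log2 levels the authors deposited, from 5.19 to 15.25 in each array. How background was corrected and arrays normalized: not given in the sources used here. Before testing, the 57 control probe sets were left out. Names came from the platform annotation, which gave 1 symbol for 20826 of 31042 probe sets, several for 436 and none for 9780. No member shared a probe set with another gene.

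Every probe set entered a linear model in R 4.3.3, by limma 3.58.1 (lmFit, then eBayes; high-fat against normal, no covariates, two-sided), with Benjamini-Hochberg adjustment over 31042. The script was tested on simulated data. Differences at or under 1e-12 counted as equal. Other genes were represented by their brightest probe set.

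Named pathway genes are those with the smallest p in each direction per list, and for each member the 2 nearest genes. The members and lists were chosen with earlier results of these data known. The labels call the arrays biological replicates. The number of arrays limits the precision. Alternatives were quantile normalization, centring, the brighter 50% of probe sets, trend with robust, array weights, the replicate block, an exact permutation test, other ways to choose among probe sets and leaving out each animal.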

Additional observations from a re-analysis of the deposited data

Results flagged for a closer look

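In 3 of 60 groups of 4 animals checked over the member and named pathway probe sets, 1 animal stood apart from the other 3 by more than Dixon's 95% limit, and chance alone flags about 5% of groups. Ncoa2 in normal replicate 1 was at -4.07 millionths, with the other normal animals between 1.86 and 2.95. Eci1 in high-fat replicate 1 was at -37.7 millionths, with the others between -2.59 and 4.32. Ucp3 in normal replicate 3 was at 4.58 millionths, with the others between -3.27 and -2.33. No member probe set was among them. Cd36, named outside the rule, was not part of this check. Its high-fat replicate 1 stood at 9709 millionths, with the other high-fat animals between -465 and 374.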

How the results depend on the processing

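No member passed limma in any of the settings tried. Over all probe sets 0 passed as deposited and 32 with quantile normalization on top, none of them a member. Centring the arrays on their medians subtracts 66.0 millionths from every difference, and 31.3 millionths without high-fat replicate 4, the array with the highest median. As deposited, the median difference over all probe sets was -0.17 millionths. Centring left 0 of the 12 member probe sets, 2 of 82 pathway genes and 2.38% of all genes higher. It put the median member probe set at -1.21 within-group SDs. It turned Ppara to -64.7 millionths, Cpt1a to -65.2, Cpt2 to -65.5, Acadl to -64.9, Hadha to -61.8 and -63.8 and the dimmer Pdk4 to -65.5. Quantile normalization left 21 pathway genes (25.6%) and 24.0% of all genes higher, put 4 member differences at 0, and turned Acadl to -27.7 millionths, Acadm to 69.9 and Hadha (1394763_at) to 4.59. Array weights turned Cpt1a to -4.73 millionths, Cpt2 to -0.137, Acadl to -0.769 and Ucp2 to 3.43. Among the brighter 50% of probe sets 4 of 7 member probe sets were higher. The cause of these changes was not tested, apart from centring, whose shift is the same for every probe set. Leaving out each animal gave differences, in millionths, from -0.586 to 2.33 for Ppara, -4.24 to 2.63 and -9.37 to 6.04 for the dimmer and brighter Cpt1a, -0.692 to 1.68 for Cpt2, -5.73 to 7.85 for Acadl, -9.00 to 0.453 for Acadm, -0.257 to 1.31 for the dimmer Pdk4 and -45.2 to 47.4 for Ucp2. The sign was the same in all 8 such fits for 4 probe sets, at 2.81 to 5.70 for the brightest Hadha, -5.35 to -0.366 and 0.353 to 5.21 for the other Hadha probe sets and -3.88 to -0.778 for the brighter Pdk4. Without an animal, 5 to 7 of the 12 member probe sets and 39 to 54 of the 82 pathway genes were higher. Same-number correlations were -0.12, 0.20, 0.35 and 0.14 for numbers 1 to 4, and 5 of 8 animals correlated best with their own number. Since number 1 did not reach the 0.1 asked of every pair, the numbers were not taken as pairs. With the replicate block 7 of the 12 member probe sets were higher and 0 passed. The SE was smaller for 9 of the 12, at 5.01 for the brighter Cpt1a, 5.71 for Acadl and 3.46 for Acadm.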
